A study of Homo sapiens with 16 samples.

Results

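Genes of the renin-angiotensin system and of the membrane-bound peptidases around it were followed through kidney organoid culture, through TNFα exposure and across organoid cell types. The 7 genes were AGT, ACE, AGTR1, MME, ENPEP, ANPEP and DPP4, taken by name from the 28261 genes listed in at least 1 of 3 bulk RNA-seq tables, and all 7 were listed in each table and in both single-cell matrices. The organoids were grown from human embryonic stem cells, the line UM77-2 for all bulk libraries, which is 1 line without a second genotype, and the labels of the single-cell libraries gave no line. Bulk libraries came from spheroids on culture days 21, 25 and 29 (D21, D25 and D29), with 1 untreated library per day in a first set (set 1) and 2 per day in a second (set 2). A further set held 4 libraries of D25 organoids given vehicle (VC) or TNFα at 5 ng/ml, with 1 library for each treatment at 24 h and at 48 h. Single-cell libraries, 1 for each treatment, were made from whole wells that had received VC or TNFα at 5 ng/ml on D23. The wells were collected 24 h later on D24. Nothing in the labels stated that libraries of one day came from separate differentiations. P-values by day therefore measure the spread between these libraries, which may be technical.

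Angiotensinogen, the product of AGT, is the precursor of angiotensin I, and the angiotensin-converting enzyme encoded by ACE turns that peptide into angiotensin II, which acts through the type 1 receptor encoded by AGTR1. The other genes encode ectopeptidases that shorten small peptides at the cell surface. MME encodes neprilysin, ENPEP aminopeptidase A and ANPEP aminopeptidase N, which act on angiotensins among other peptides. DPP4 encodes a dipeptidyl peptidase that cuts incretin hormones. In the kidney such peptidases are known from the brush border of the proximal tubule, and neprilysin and aminopeptidase A also from podocytes, the epithelial cells that cover the glomerular capillaries.

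In the GENCODE v44 annotation of GRCh38, AGT (ENSG00000135744) lies on chr1:230690776-230745576 on the minus strand, where it overlaps COG2 on the other strand. ACE (ENSG00000159640) lies on chr17:63477061-63498380, AGTR1 (ENSG00000144891) on chr3:148697784-148743008, MME (ENSG00000196549) on chr3:155024124-155183704 and ENPEP (ENSG00000138792) on chr4:110365733-110565285, all on the plus strand. ANPEP (ENSG00000166825) lies on chr15:89784895-89815401 and DPP4 (ENSG00000197635) on chr2:161992245-162074394, both on the minus strand. MME and DPP4 overlap the opposite-strand transcripts MME-AS1 and DPP4-DT, and ENPEP overlaps the opposite-strand gene RPL7L1P13 and 2 unnamed ones. The strand setting of the read counting was not given in the sources used here. Reads of AGT, MME, ENPEP and DPP4 that fall in such overlaps therefore cannot be assigned to a strand. On their own strand AGT overlaps ENSG00000244137, ACE ENSG00000264813 and ENPEP ZNF969P. How reads in those overlaps were counted was not given either.

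Upstream sequences are shown for 4 of the genes. These are ENPEP and MME, the peptidases highest in podocyte-like cells, and AGT and ANPEP, which were highest in proximal tubule-like cells. ACE and DPP4 were also highest in proximal tubule-like cells, and their windows were searched but are not shown. RefSeq sequences on GRCh38.p14 gave 11 start sites for 6 of the 7 genes, and the 250 bases before each start were searched. Capitals mark the matches to the motifs spelled out after the sequences, and each line runs 5′ to 3′ toward the start site. ENPEP is from chr4:110475905-110476154 on the plus strand, AGT from chr1:230714123-230714372 on the minus strand and MME from chr3:155079422-155079671 on the plus strand, the first of 4 MME windows. The ANPEP windows are from chr15:89814853-89815102 and chr15:89806629-89806878, both on the minus strand.
ENPEP: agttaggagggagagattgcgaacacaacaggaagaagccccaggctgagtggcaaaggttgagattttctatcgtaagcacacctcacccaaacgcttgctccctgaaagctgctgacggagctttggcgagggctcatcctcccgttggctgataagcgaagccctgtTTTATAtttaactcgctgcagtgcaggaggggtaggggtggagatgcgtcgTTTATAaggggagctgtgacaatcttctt
AGT: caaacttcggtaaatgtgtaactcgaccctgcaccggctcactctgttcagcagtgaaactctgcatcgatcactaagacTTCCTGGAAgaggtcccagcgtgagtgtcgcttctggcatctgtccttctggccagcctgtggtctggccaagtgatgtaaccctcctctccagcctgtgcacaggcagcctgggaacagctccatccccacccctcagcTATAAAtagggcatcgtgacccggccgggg
MME: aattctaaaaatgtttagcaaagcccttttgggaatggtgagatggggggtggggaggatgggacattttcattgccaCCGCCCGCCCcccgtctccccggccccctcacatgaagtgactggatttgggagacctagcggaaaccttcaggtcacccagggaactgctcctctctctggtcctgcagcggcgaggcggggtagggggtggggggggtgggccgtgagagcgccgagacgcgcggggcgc
ANPEP, first start: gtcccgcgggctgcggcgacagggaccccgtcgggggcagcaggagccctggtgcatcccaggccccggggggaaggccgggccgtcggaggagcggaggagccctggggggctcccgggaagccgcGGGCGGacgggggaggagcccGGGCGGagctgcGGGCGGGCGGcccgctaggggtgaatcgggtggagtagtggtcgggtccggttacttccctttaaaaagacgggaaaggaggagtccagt
ANPEP, second start: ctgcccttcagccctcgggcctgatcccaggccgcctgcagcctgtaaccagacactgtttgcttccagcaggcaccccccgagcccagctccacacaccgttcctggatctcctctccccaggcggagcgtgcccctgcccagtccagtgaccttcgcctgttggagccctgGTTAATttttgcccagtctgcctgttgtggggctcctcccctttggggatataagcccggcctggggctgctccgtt

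The search covered both strands and 8 short motifs. A TATA box (TATAAA) was found 30 bases before the AGT start and 80 and 29 bases before the ENPEP start. The second ACE window, not shown, held one 31 bases before its start. Of 35116 such windows of all genes 10.7% held a TATA box. GC boxes (GGGCGG), present in 42.6% of all windows, were found at 2 places in the MME window shown and at 4 in the first ANPEP window. They also occurred in windows of ACE, MME and DPP4 that are not shown. The second ANPEP window held the letters GTTAAT (6.23% of all windows) 77 bases before the start, and the AGT window a STAT-type site (TTCNNNGAA, 6.57%) 170 bases before it. A CCAAT box (CCAAT, 32.01%) was found in none of the windows shown but in 1 ACE and 1 MME window. None of the 11 windows held the letters of a κB-type site (GGGANTTTC, 1.12% of all windows), an HNF4 site (CAAAGTCCA, 0.325%) or an AP-1 site (TGANTCA, 6.57%). These are letter matches in a fixed window and say nothing about binding.

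Total reads ranged from 25508651 to 29408687 in set 1, from 19073609 to 30282025 in set 2 and from 49948198 to 59246286 in the TNFα set. Bulk values are given as log2(CPM + 1), where CPM is the number of reads per 1000000 reads of the library. Folds from bulk fits are therefore folds of CPM + 1, which lie nearer to 1 than folds of CPM, most so at low levels. The second D29 library of set 2 stood apart from its partner in podocyte content: the summed level of 9 podocyte markers was 3882 CPM in it and 8021 CPM in the other. A chi-square comparison of counts within pairs of libraries gave 17.4 per degree of freedom for D29, against 5.01 for D21 and 4.90 for D25. The single-cell TNFα library also stood apart. It held 23160 cells with a median of 2599 unique molecular identifiers (UMIs, counted transcripts), against 11906 cells of 12494 barcodes and a median of 6358.5 UMIs in VC, and 74 barcodes occurred in both libraries. When the libraries were clustered without alignment, 14990 of the TNFα cells fell into 1 cluster that raised no marker list.

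Per kilobase of annotated exon, ENPEP had the highest median level of the 7 genes in each of the 3 sets and AGTR1 the lowest. In set 2 the range over the 6 libraries was 22.5 to 52.2 CPM per kb for ENPEP, 11.3 to 35.7 for MME and 4.79 to 10.6 for DPP4. ANPEP spanned 1.77 to 2.95 CPM per kb, AGT 0.9996 to 2.28, ACE 0.854 to 1.39 and AGTR1 0.135 to 0.276. Over the 6 libraries the ranges of ENPEP and MME overlapped, as did those of ANPEP and AGT and of AGT and ACE. Those of MME and DPP4, of DPP4 and ANPEP and of ACE and AGTR1 did not. Within each set 2 library the levels per kb kept 1 order, from ENPEP through MME, DPP4, ANPEP, AGT and ACE down to AGTR1. This order depends on the division by all annotated exon bases, which need not match the transcripts expressed. These were 12.703 kb for AGT and 5.046 kb for ANPEP. In CPM without that division AGT was above ANPEP in every set 2 library, with ranges of 12.7 to 29.0 and 8.94 to 14.9. In the TNFα set the median of DPP4, 13.6 CPM per kb, was above that of MME at 12.4, and their ranges overlapped. In the TNFα library at 48 h DPP4 stood at 12.5 and ENPEP at 12.4 CPM per kb, so ENPEP was not the highest there. AGTR1 rested on few reads, 10 to 26 per library in set 2, 14 to 23 in set 1 and 44 to 87 in the TNFα set.

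The question of how the genes moved with culture duration was addressed in set 2, with limma fitted to all 27650 genes of the table, and set 1 is given beside it without a test. AGT and DPP4 fell from D21 to D29 and MME rose, while ACE, AGTR1, ENPEP and ANPEP did not pass the test. DPP4 and AGT also fell between D25 and D29, and none of the 7 genes passed between D21 and D25. Thus 3 of 7 genes were called on D29 versus D21, 1 higher and 2 lower, where 18.4% of all genes were called, 10.0% higher and 8.33% lower. On D25 versus D21 5.37% of all genes were called. On D29 versus D25 2 of 7 were called, both lower, where 2.08% of all genes were called and 0.825% called lower. The median log2 change of the 7 genes on D29 versus D21 was -0.46 and that of all genes -0.02. Among all genes tested 2778 calls were upward and 2303 downward on D29 versus D21, and after centring each library on its median, which shifted the median change to -0.12, 2408 and 4667. On D25 versus D21 the same counts were 937 and 549, and 971 and 1281 after centring. The comparisons share libraries and are not independent of each other.

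**Figure D1:**
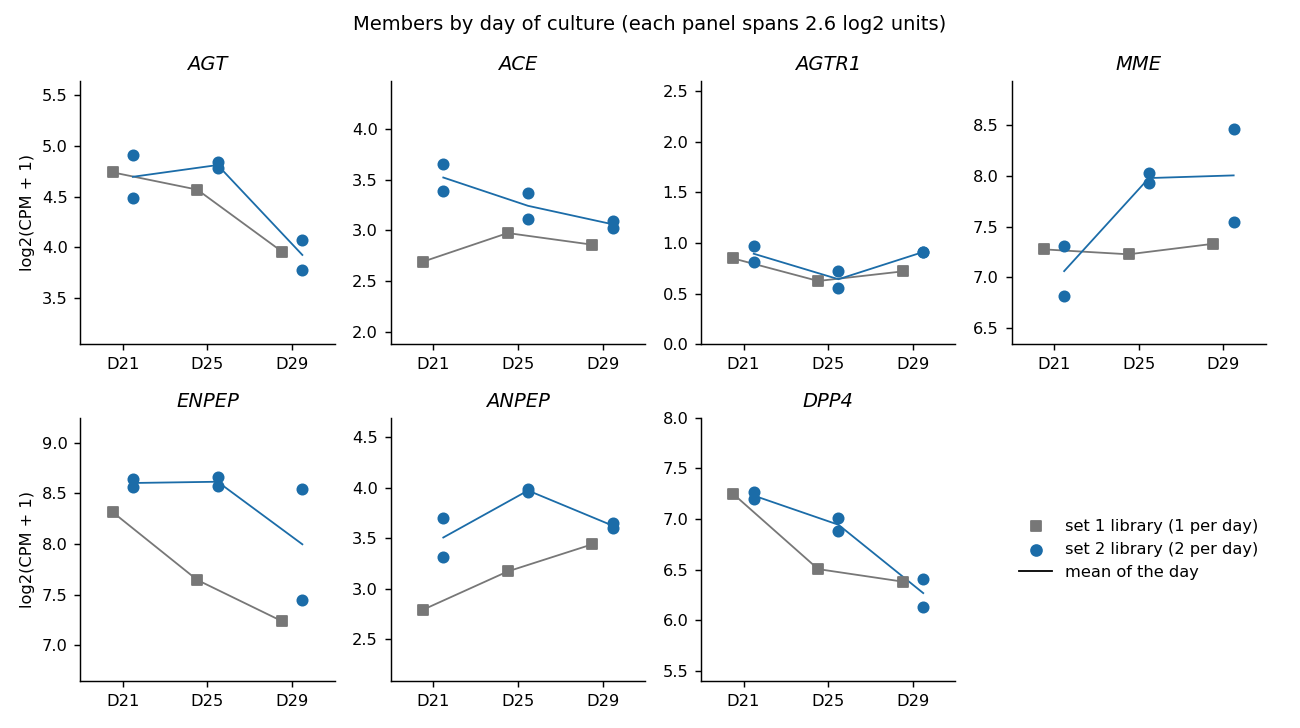
Level of each gene, log2(CPM + 1), by day of culture; squares are the single set 1 libraries, circles the 2 set 2 libraries per day, and lines join the day means. DPP4 lay between 7.19 and 7.27 in the D21 libraries of set 2 and between 6.13 and 6.40 on D29, and the D29 libraries of ENPEP at 8.55 and 7.45.

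AGT, the precursor gene, had log2 values of 4.91 and 4.48 in the D21 libraries of set 2, 4.84 and 4.78 on D25, then 3.78 and 4.07 on D29. The D29 libraries were below all others. AGT fell by 0.77 on the log2 scale from D21 to D29 (SE 0.15, limma adjusted p = 0.0115), a 1.71-fold lower level, and by 0.89 from D25 to D29 (adjusted p = 0.0377). Without the first D21 library the D29 versus D21 difference was -0.56, and its adjusted p was 0.0771. In set 1 AGT stood at 4.74, 4.57 and 3.96 on the 3 days, with D29 again the lowest.

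ACE, the converting enzyme, stood at 3.66 and 3.38 on D21, 3.37 and 3.11 on D25, then 3.10 and 3.03 on D29. The D29 libraries lay below the D21 libraries, but the difference of -0.46 (SE 0.15) did not pass the test (limma adjusted p = 0.0749), and 5 of 13 alternatives called it, edgeR's quasi-likelihood test among them with an adjusted p of 0.0409. Set 1 had the opposite order, with 2.69 on D21, 2.97 on D25 and 2.86 on D29. AGTR1, the receptor, had log2 values between 0.56 and 0.97 in the 6 set 2 libraries and between 0.62 and 0.85 in set 1. Its days overlapped on D29 and D21, where the difference was 0.017 (SE 0.12, limma adjusted p = 0.949).

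MME was the only one of the 7 genes called higher on D29 than on D21. Its set 2 values were 7.31 and 6.81 on D21, 7.93 and 8.03 on D25, then 8.46 and 7.55 on D29, so the lower D29 library stood below both D25 libraries and above both D21 libraries. The difference between D29 and D21 was 0.95 (SE 0.27, 1.93-fold, limma adjusted p = 0.0472). That call rested on several choices: DESeq2 gave an adjusted p of 0.0542 and limma without the trend 0.0891, and without the first or the second D21 library, the first or the second D25 library, or the first D29 library it was 0.0781, 0.257, 0.0816, 0.0810 and 0.0907. Without the first D29 library the difference was 0.49. The D25 versus D21 difference was 0.92 (adjusted p = 0.107). In set 1 MME stood at 7.28, 7.23 and 7.33, with D21 between the other days.

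ENPEP had log2 values of 8.64 and 8.57 on D21, 8.57 and 8.66 on D25, then 8.55 and 7.45 on D29. The first D29 library was at the level of the earlier days and the second was not, and the D29 versus D21 difference of -0.61 (SE 0.29) did not pass the test (limma adjusted p = 0.195). Without the first D29 library the difference was -1.15 and its adjusted p 8.38e-05, and without the second it was -0.059. The low ENPEP level occurred in the library with the low podocyte marker sum. Set 1 values were 8.32, 7.65 and 7.24, lower on each later day.

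ANPEP stood at 3.70 and 3.31 on D21, 3.99 and 3.96 on D25, then 3.60 and 3.65 on D29. Its D21 and D29 libraries overlapped, with a difference of 0.12 (SE 0.14, limma adjusted p = 0.644), and the D25 versus D21 difference was 0.46 (adjusted p = 0.12). In set 1 ANPEP was 2.79, 3.17 and 3.44. DPP4 had values of 7.27 and 7.19 on D21, 7.01 and 6.88 on D25, then 6.40 and 6.13 on D29, without overlap between any 2 days. From D21 to D29 DPP4 fell by 0.96 (SE 0.10, 1.95-fold lower, limma adjusted p = 0.000581), which was called under all 13 alternatives. From D25 to D29 it fell by 0.67 (adjusted p = 0.0229). The D29 versus D25 calls of DPP4 and AGT were lost without either D25 library, with adjusted p of 0.181 and 0.143 for DPP4 and 0.227 and 0.188 for AGT, and that of DPP4 was also lost without either D21 library (0.0624 and 0.0613). DPP4 in set 1 was 7.25, 6.51 and 6.38.

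Cell type markers moved over the same days. On D29 versus D21, 5 of 9 podocyte markers and 7 of 10 proximal tubule markers fell, with median log2 changes of -1.02 and -0.56, and 6 of 7 stromal markers rose, with a median of 1.51. Podocyte markers summed to 10991 to 11503 CPM at D21, to 9277 to 9513 at D25 and to 3882 to 8021 at D29. Proximal tubule markers summed to 943 to 1169 CPM at D21, to 1038 in both D25 libraries and to 429 to 555 at D29. The stromal sum was 3445 to 3824 CPM at D21, and at D25 and D29 it reached 8046 to 8179 and 10316 to 12627. No marker of these 3 lists was at 0 reads in any set 2 library. In bulk samples fewer cells of a type and less RNA per cell cannot be told apart, and the part of these shifts in the gene results was not tested.

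The level of MME relative to ENPEP within a library differed between the days, a relation chosen after the values were seen and given without a test. The ratio of MME to ENPEP CPM was 0.395 and 0.295 in the D21 libraries of set 2, 0.641 and 0.644 on D25, then 0.944 and 1.07 on D29. In set 1 it was 0.484, 0.747 and 1.07 on the same days. Both sets therefore had their lowest ratio on D21 and their highest on D29, and the days did not overlap, although the D29 libraries of set 2 differed in podocyte content. Relative to the summed podocyte markers, MME was 1.43% and 0.970% on D21, 2.63% and 2.73% on D25, then 4.38% and 4.80% on D29. ENPEP was 3.62% and 3.29%, then 4.10% and 4.24%, then 4.64% and 4.48% on the same days. MME was not confined to podocytes, since podocyte-like cells held 61.6% of its UMIs in the single-cell VC library. The part of stromal and other cells in these ratios was not tested. In the TNFα set the MME to ENPEP ratio was 0.660 and 0.578 in VC and TNFα at 24 h and 0.595 and 0.685 at 48 h, with no common direction.

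**Figure D2:**
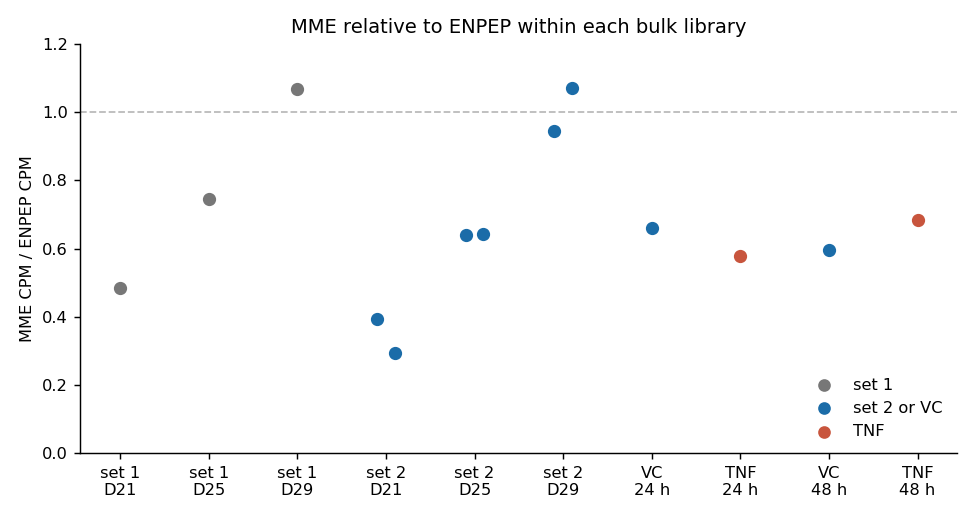
Ratio of MME CPM to ENPEP CPM in each bulk library, 1 point per library, with a dashed line at a ratio of 1. The ratio was 0.295 to 0.395 on D21 of set 2 and 0.944 to 1.07 on D29, and 0.578 to 0.685 in the 4 libraries of the TNFα set.

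The second question was how the genes responded to TNFα. With 1 library per treatment and time, both times entered 1 limma fit over 21093 genes with time as a term. The times stood in for replicates and left 1 residual degree of freedom per gene, before limma shared the spread across genes. P-values here therefore measure how far the TNFα difference varied between the times, not a spread between replicates. Under TNFα 6 of the 7 genes fell, namely ANPEP, ENPEP, MME, AGT, ACE and DPP4, and AGTR1 did not pass the test. Of all genes 19.3% were called and 10.8% were called lower. The median log2 change of the 7 genes was -0.94 and that of all genes -0.03. All 6 calls were kept under each of the 6 alternatives that were run.

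**Figure D3:**
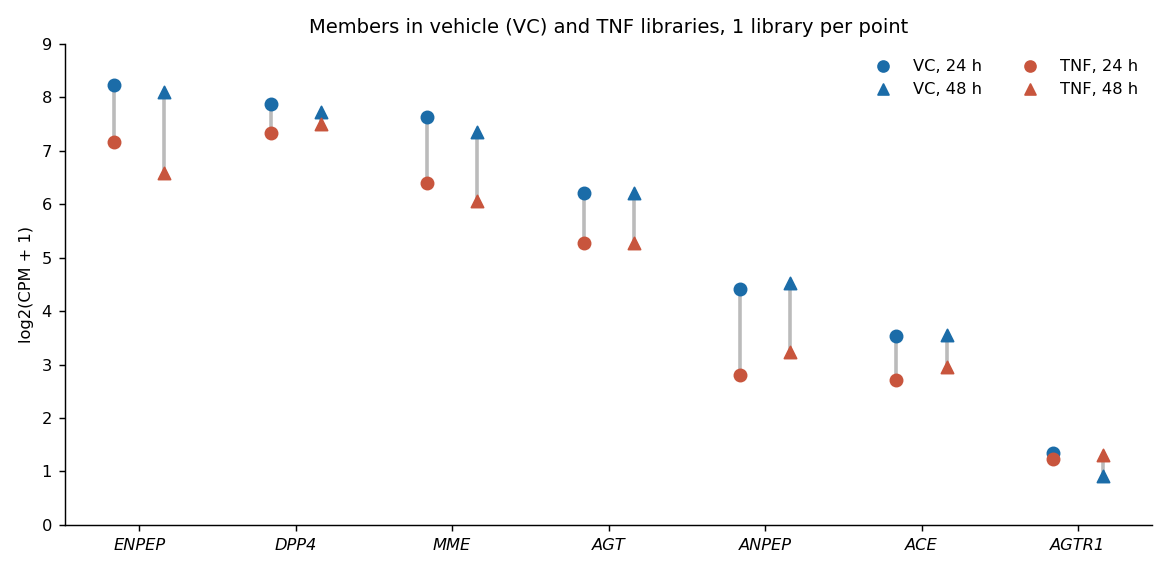
Level of each gene, log2(CPM + 1), in the 4 libraries of the TNFα set; circles are 24 h and triangles 48 h, blue is VC and red TNFα, and grey lines join the libraries of 1 time. The TNFα library was below its VC library at both times for every gene but AGTR1, and the difference at 48 h was -1.50 for ENPEP and -0.22 for DPP4.

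Aminopeptidases and neprilysin had the largest differences. ANPEP was 4.41 in VC and 2.80 in TNFα at 24 h, and 4.53 and 3.25 at 48 h. It fell by 1.45 on the log2 scale (SE 0.11, 2.72-fold lower, limma adjusted p = 1.96e-08). In CPM without the added 1, ANPEP in TNFα was 29.6% of VC at 24 h and 38.4% at 48 h. ENPEP was 8.22 and 7.17 at 24 h and 8.09 and 6.59 at 48 h, and it fell by 1.28 (SE 0.08, 2.42-fold lower, adjusted p = 3.51e-09). MME was 7.63 and 6.39 at 24 h and 7.35 and 6.05 at 48 h, and fell by 1.27 (SE 0.06, 2.41-fold lower, adjusted p = 1.10e-10). For all 6 genes called lower, these 3 and AGT, ACE and DPP4, both TNFα values lay below both VC values. The share of all genes without such overlap was not counted, and the 6 genes were called on the same libraries. The separation therefore adds no support to the calls.

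AGT was 6.21 in VC and 5.27 in TNFα at 24 h, and 6.20 and 5.27 at 48 h, and it fell by 0.94 (SE 0.07, 1.92-fold lower, limma adjusted p = 1.97e-08). ACE was 3.53 and 2.71 at 24 h and 3.56 and 2.95 at 48 h, and fell by 0.71 (SE 0.11, 1.64-fold lower, adjusted p = 0.000157). DPP4 had the smallest called difference. It was 7.88 and 7.34 at 24 h and 7.73 and 7.505 at 48 h, and fell by 0.38 (SE 0.07, 1.302-fold lower, adjusted p = 0.000848). AGTR1 was 1.34 and 1.23 at 24 h and 0.92 and 1.31 at 48 h, with a difference of 0.14 (SE 0.13, adjusted p = 0.544) and opposite signs at the 2 times. No difference between 24 h and 48 h was tested, since each group had 1 library.

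Markers of the cells that hold these genes moved with them. All 9 podocyte markers and all 10 proximal tubule markers fell under TNFα, with median log2 changes of -0.84 and -1.04, and of 7 stromal markers 3 rose and 1 fell. The summed podocyte markers were 6764 CPM in VC and 4235 in TNFα at 24 h and 6264 and 3187 at 48 h, ratios of 0.626 and 0.509. Summed proximal tubule markers were 1038 and 463 CPM at 24 h and 1032 and 517 at 48 h, ratios of 0.446 and 0.501. Summed stromal markers were 5408 and 6729 CPM at 24 h and 6731 and 7076 at 48 h. None of these markers was at 0 reads in any library.

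Set beside these sums, the 7 genes did not all keep their share. DPP4 was 22.6% of the summed proximal tubule markers in VC and 34.9% in TNFα at 24 h, and 20.4% and 34.9% at 48 h. AGT was 7.04% and 8.12% at 24 h and 7.05% and 7.26% at 48 h. ACE was 1.017% and 1.203%, then 1.043% and 1.303%. ANPEP was 1.95% and 1.29%, then 2.14% and 1.64%. Of the podocyte sum, ENPEP was 4.41% and 3.39% at 24 h and 4.34% and 2.99% at 48 h, and MME 2.91% and 1.96%, then 2.58% and 2.05%. DPP4, ACE and AGT were thus a larger share of the proximal tubule sum in both TNFα libraries, AGT by the least at 48 h, and ANPEP, ENPEP and MME a smaller one. These shares were formed after the values were seen and carry no test, and the part of the marker shifts in the gene results was not tested.

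The single-cell libraries showed which cells held the 7 genes. Cells with over 500 detected genes were clustered on 3453 variable genes that left out the 7 genes and the other listed renin-angiotensin and peptidase genes, giving 14 clusters. Cluster 2 was called proximal tubule-like, with 7 of 10 markers raised. It also raised 6 of 7 early nephron markers. Cluster 3 was called podocyte-like, with 9 of 9 markers raised, and cluster 1 stromal-like, with 5 of 7. Cluster 8 raised 8 of 9 podocyte markers but was left unnamed, since its 10 leading genes, with TESC and ITIH5 first, held CLDN5 of the endothelial list and no podocyte marker. The VC library held 1317 proximal tubule-like, 916 podocyte-like and 2562 stromal-like cells and 496 cells of cluster 8. Levels are given as CPM, here UMIs per 1000000 counted in the class. Their 95% Poisson intervals are exact and hold counting error alone, and no test was possible between conditions of 1 library.

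ENPEP and MME were highest in podocyte-like cells of the VC library. ENPEP reached 520 CPM there (505 to 536), 156 (147 to 167) in cluster 8, 13.96 (12.3 to 15.8) in proximal tubule-like and 7.97 (6.55 to 9.59) in stromal-like cells. MME reached 490 (475 to 505) in podocyte-like cells, 50.1 (47.0 to 53.4) in proximal tubule-like, 48.8 (45.2 to 52.6) in stromal-like cells and 18.9 (15.6 to 22.6) in cluster 8. In the unnamed cluster 14, with 196 VC cells, ENPEP was 51.5 (38.4 to 67.5) and MME 40.6 (29.1 to 55.1). Podocyte-like cells, which gave 8.42% of all UMIs, held 71.3% of the ENPEP UMIs and 61.6% of the MME UMIs. The MME levels of proximal tubule-like and stromal-like cells did not differ beyond their intervals.

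The genes parted in cluster 8, which was not a separate unnamed cluster in every setting. Without alignment a single cluster, with 1362 VC cells, had the podocyte list as its most raised. With the VC library clustered alone a single cluster of 1429 cells did. With the highest doublet scores left out, cluster 8 took the podocyte name. The ratios given next are from the main setting. In podocyte-like cells there were 0.942 MME UMIs per ENPEP UMI (0.902 to 0.983), and in cluster 8 there were 0.121 (0.0987 to 0.146). Proximal tubule-like cells had 3.59 (3.13 to 4.13) and stromal-like cells 6.13 (5.01 to 7.56). Since these are counts of 3′ tags, with 1 UMI per captured transcript, the ratio needs no scaling by length. In the TNFα library the ratios were 1.15 (1.08 to 1.22) in podocyte-like cells and 0.344 (0.281 to 0.419) in cluster 8. Of these classes, cluster 8 thus had the lowest ratio and podocyte-like cells the next in both libraries, while the other classes changed order. In VC the neuronal-like cells, taken below as the background, had 12.4 CPM of ENPEP (10.6 to 14.4) and 17.5 of MME (15.4 to 19.9). ENPEP in proximal tubule-like and stromal-like cells and MME in cluster 8 were not above these levels beyond their intervals. Neural progenitor or glial-like cells had less in VC, 4.64 CPM of ENPEP (3.37 to 6.23) and 4.95 of MME (3.64 to 6.59). ENPEP in proximal tubule-like and stromal-like cells and MME in cluster 8 were above those levels beyond their intervals. How far the VC ratios of these classes rest on background counts thus depends on the class taken as background, and was not tested.

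AGT, ACE, ANPEP and DPP4 were highest in proximal tubule-like cells. DPP4 had 115 CPM there (111 to 120) against 2.24 (1.35 to 3.50) in podocyte-like cells and 1.36 (0.821 to 2.13) in stromal-like cells. The next highest DPP4 levels in VC were 36.6 (25.8 to 50.5) in the unnamed cluster 14 and 8.87 (6.68 to 11.5) in cluster 8. AGT had 45.1 (42.1 to 48.2) in proximal tubule-like cells, followed among the named classes by muscle-like cells with 5.81 (4.37 to 7.58). ACE had 6.55 (5.45 to 7.82), 2.58 (1.47 to 4.19) in cluster 8 and 2.13 (1.26 to 3.36) in podocyte-like cells, and the last of these did not differ beyond their intervals. ANPEP had 5.75 (4.72 to 6.95) in proximal tubule-like and 1.08 (0.602 to 1.78) in stromal-like cells, and 0 UMIs in 496 cells of cluster 8, where 3 UMIs would be 0.484 CPM. Proximal tubule-like cells gave 18.7% of all UMIs and held 87.9% of the DPP4, 81.7% of the AGT, 75.0% of the ANPEP and 68.0% of the ACE UMIs.

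AGTR1 was sparse, with 71 UMIs in the whole VC library. Stromal-like and proximal tubule-like cells held 27 each, at 1.94 (1.28 to 2.82) and 1.44 (0.948 to 2.09) CPM, which did not differ beyond their intervals. With finer clustering, at a resolution of 0.5, an endothelial-like cluster of 61 VC cells held 1 AGTR1 UMI, the highest level by that count alone.

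**Figure D4:**
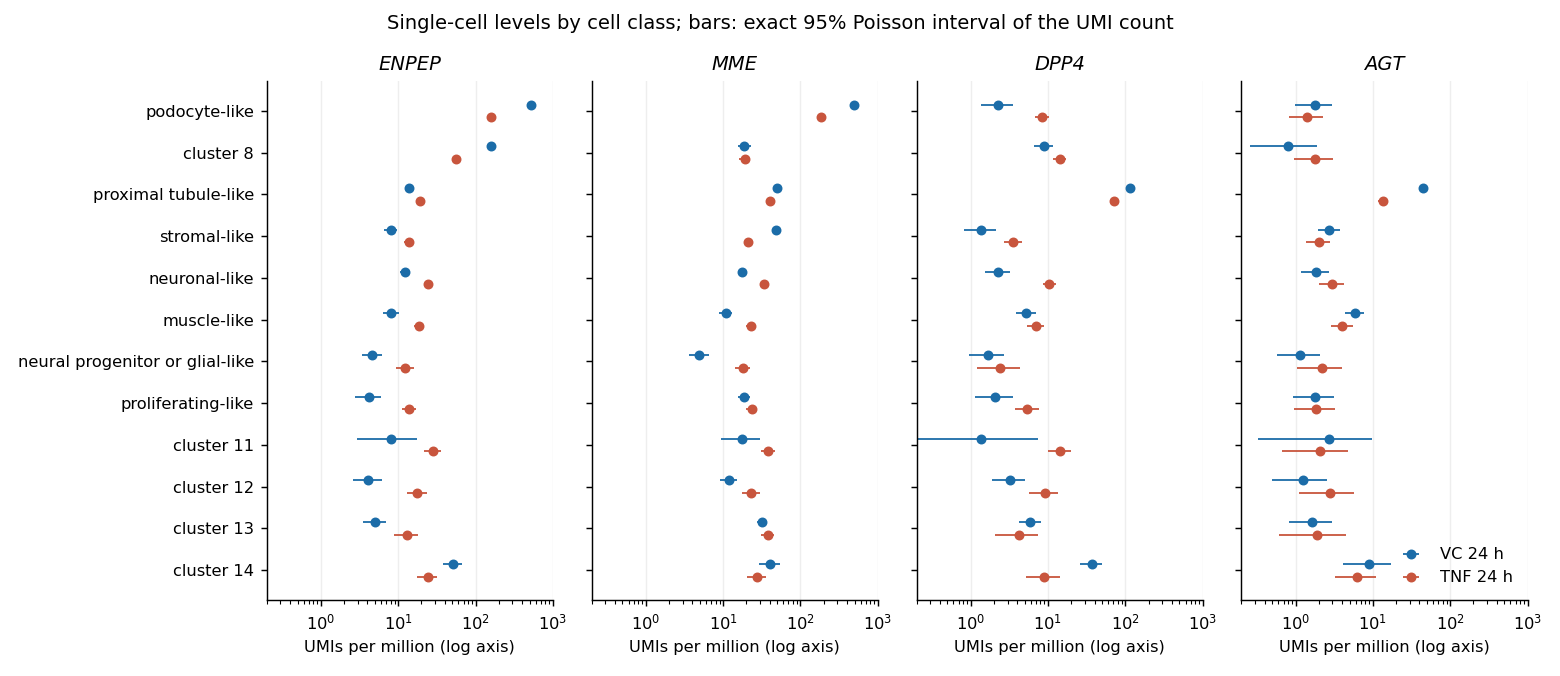
CPM (log axis) of ENPEP, MME, DPP4 and AGT in each cell class of the VC (blue) and TNFα (red) libraries; bars are exact 95% Poisson intervals. ENPEP and MME peak in podocyte-like cells at 520 and 490, and DPP4 and AGT in proximal tubule-like cells at 115 and 45.1.

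Cells with at least 1 UMI followed the same order. ENPEP was detected in 87.3% of podocyte-like cells of the VC library and in 4.38% of neuronal-like cells, which were taken as the background, and after thinning every cell to 1500 UMIs in 51.9% and 0.947%. MME was detected in 73.3% of podocyte-like cells and 7.38% of neuronal-like cells, and after thinning in 43.4% and 1.58%. DPP4 was detected in 54.4% of proximal tubule-like cells and 1.33% of neuronal-like cells, and after thinning in 16.8% and 0.126%. AGT was detected in 21.4% and 1.27%, and after thinning in 4.66% and 0.379%. Before thinning the median depth was 4957.5 UMIs per podocyte-like cell, 8671 per proximal tubule-like cell and 6382 per neuronal-like cell, and 36, 73 and 150 of these cells were too shallow for thinning.

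The genes whose single-cell pattern was most like each of the 7 were taken over 28 sums of UMIs, 1 per cluster and library, by Pearson's r of the log levels and as a description only, since sums of 1 library share its depth. For ENPEP they were TMEM150C (r = 0.979), TGFBR3 (0.971) and CLIC5 (0.970), and for MME BMP2 (0.865), ANOS1 (0.849) and PTH1R (0.840). Among those of DPP4 were LHFPL3-AS2 (0.968) and CYS1 (0.967), and AGT was followed by SLC39A5 (0.945), AFP (0.933) and FTCD (0.931). ACE was closest to PNOC (0.897), MT1E (0.894) and AMACR (0.878), and ANPEP to MT1H (0.869), CALML4 (0.821) and PNOC (0.816). For AGTR1, which nowhere exceeded 1.94 CPM, the highest values were 0.750, 0.699 and 0.687 for ITM2A, RALYL and GGA1.

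In single cells the TNFα library was lower than the VC library in the classes where each gene was highest. ENPEP in podocyte-like cells was 520 CPM in VC and 160.5 in TNFα, a ratio of 0.309 (exact 95% interval 0.292 to 0.325). MME there was 490 and 184, a ratio of 0.376 (0.357 to 0.396). In proximal tubule-like cells AGT was 45.1 and 13.4, a ratio of 0.298 (0.256 to 0.347), and ANPEP was 5.75 and 1.37, a ratio of 0.238 (0.143 to 0.379). ACE was 6.55 and 3.23, a ratio of 0.494 (0.350 to 0.688), and DPP4 115 and 70.7, a ratio of 0.613 (0.570 to 0.659). ENPEP in cluster 8 was 156 and 55.4, a ratio of 0.354 (0.314 to 0.398). These compare 1 library with another.

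The markers that define each class were lower too. Over the 9 podocyte markers in podocyte-like cells the TNFα to VC ratio had a median of 0.534, with a range of 0.322 to 0.584, and the ENPEP ratio lay below that range. Over 10 proximal tubule markers in proximal tubule-like cells the median was 0.513 (0.204 to 0.770), and AGT, ANPEP, ACE and DPP4 lay within the range. Without alignment of the libraries 1249 TNFα cells instead of 3274 were podocyte-like and 767 instead of 3626 proximal tubule-like. The VC classes changed as well, to 1362 podocyte-like cells instead of 916 and 1081 proximal tubule-like cells instead of 1317. All of the ratios above were then nearer to 1, but over classes whose cells differed in both libraries. ENPEP in podocyte-like cells was then 0.453 (0.428 to 0.479), MME 0.547 (0.516 to 0.579) and the marker median 0.750. In proximal tubule-like cells AGT was 0.388 (0.324 to 0.462), ANPEP 0.313 (0.169 to 0.542), ACE 0.608 (0.402 to 0.897), DPP4 0.713 (0.654 to 0.776) and the marker median 0.623.

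Outside their main classes the direction was mixed. With alignment ENPEP was higher in the TNFα library in proximal tubule-like cells, 13.96 against 19.3 CPM, and in neuronal-like cells, 12.4 against 24.5, where VC is given first. DPP4 was likewise higher in podocyte-like cells, 2.24 against 8.38, and in neuronal-like cells, 2.27 against 10.4. Without alignment the ENPEP ratio in proximal tubule-like cells was 0.638 instead of 1.39, so that direction was not kept. For DPP4 without alignment the ratio was 1.25 (0.831 to 1.87) in podocyte-like cells instead of 3.73, and 1.21 (0.394 to 3.19) in neuronal-like cells instead of 4.59, and both intervals included 1. The 14990 TNFα cells clustered without a raised marker list had 43.8 CPM for ENPEP, 56.8 for MME, 22.0 for DPP4 and 4.198 for AGT. The levels over all 23160 TNFα cells were 39.9, 48.9, 18.6 and 4.34. Most of those cells are the 14990 themselves, so the closeness of the levels is partly given by this overlap. The part of the 14990 cells in the class levels was not tested. Over all cells, without any class, the TNFα to VC ratio was 0.376 (0.266 to 0.523) for ANPEP, 0.422 (0.375 to 0.475) for AGT, 0.575 (0.376 to 0.868) for AGTR1, 0.585 (0.452 to 0.754) for ACE, 0.650 (0.623 to 0.677) for ENPEP, 0.730 (0.703 to 0.759) for MME and 0.761 (0.715 to 0.810) for DPP4.

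**Figure D5:**
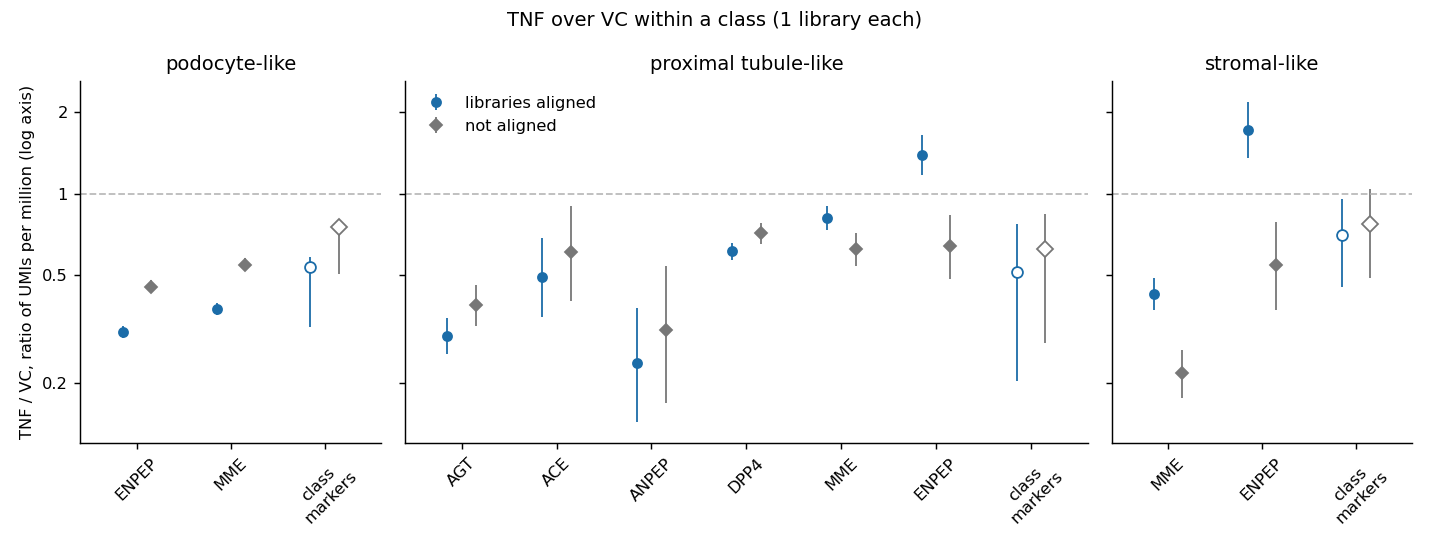
Ratio of CPM, TNFα over VC (log axis), within stromal-like, podocyte-like and proximal tubule-like cells; circles are from aligned and diamonds from unaligned libraries, with exact 95% intervals, and open symbols give the median and range of the class markers. ENPEP in podocyte-like cells lies at 0.309 with alignment and 0.453 without, and ENPEP in proximal tubule-like cells changes side, from 1.39 to 0.638.

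Other genes of the renin-angiotensin system were read from a list of 17, of which 11 were in the set 2 table. On D29 versus D21 1 of these rose and 2 fell, and the median log2 change was -0.02, as for all genes. AGTR2, the type 2 angiotensin receptor, had 264 and 277 reads on D21, 903 and 949 on D25, then 2644 and 2323 on D29, with no overlap between days. It rose by 2.84 on the log2 scale (SE 0.10, 7.17-fold, limma adjusted p = 3.40e-05). KLK1, a tissue kallikrein, fell by 0.85 (limma adjusted p = 0.00736) and THOP1, thimet oligopeptidase, by 0.43 (limma adjusted p = 0.0111). KLK1 rested on few reads, 32 and 32 on D21 and 7 and 9 on D29. At such counts the added 1 makes the log2 change smaller than that of the CPM.

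Under TNFα 10 of the 17 genes were measured, of which 1 rose and 4 fell. Among them KLK1 fell by 0.68 (limma adjusted p = 0.000968), AGTR2 by 0.58 (adjusted p = 0.000149) and the carboxypeptidase gene CTSA by 0.21 (adjusted p = 0.0383), and NLN, neurolysin, rose by 0.26 (adjusted p = 0.0203). In the VC single-cell library AGTR2 was highest in the unnamed cluster 12, which held 222 of its 1078 UMIs.

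Of 18 other membrane peptidases 16 were in the set 2 table, and on D29 versus D21 5 rose and 4 fell. FAP, fibroblast activation protein, rose by 2.08 (4.22-fold, limma adjusted p = 0.000171) and had 1649 of its 2946 VC UMIs in stromal-like cells. DPP6, DPP10, FOLH1 and LVRN rose by 0.81, 0.74, 0.46 and 0.42. FOLH1 rested on 6 and 4 reads on D21 and 21 and 18 on D29, and LVRN on 15 and 22, then 40 and 38. GGT1, a gamma-glutamyltransferase, fell by 1.69 (adjusted p = 0.000127), and the carboxypeptidase M gene (CPM, not the unit), DPEP1, a dipeptidase gene, and CPD, a carboxypeptidase gene, fell by 0.72, 0.58 and 0.50. Under TNFα 15 were measured, 1 rose and 4 fell. CLTRN, also known as collectrin, fell by 0.90 (limma adjusted p = 3.41e-05), the gene CPM by 0.63, DPEP1 by 0.55 and XPNPEP2 by 0.45, while DPP6 rose by 0.27. In these libraries CLTRN had 70 to 202 reads and XPNPEP2 70 to 133. DPEP1 and the gene CPM, like DPP4, had most of their UMIs in proximal tubule-like cells of the VC library, 1418 of 1758 and 1061 of 1633.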

How the data were processed

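Per the submitters' notes and the methods, the authors aligned paired reads to GRCh38 (Ensembl 104) with STAR 2.7.8a, counted them per gene with HTSeq 0.11 (the methods name another version) and normalized with voom and limma. The deposited bulk values are log2(CPM + 1), where the authors added 0.5 to each count. Whole counts could be recovered from 100% of values (tolerance 0.01 reads), and 99.7% to 99.9% of each total was on listed genes. The single-cell files hold UMI counts deposited by the authors. The notes name Cell Ranger 2.1.1 and both hg19 and hg38, and which build served these counts was not settled. A further single-cell library is not analysed here.

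The bulk values were fitted with limma 3.58.1 (R 4.3.3) with a trend on the mean, with 1 mean per day over the 6 set 2 libraries and with time plus treatment over the 4 libraries of the TNFα set. P-values were two-sided and Benjamini-Hochberg adjusted over all genes of a table, and genes were called at an adjusted p under 0.05. Alternatives used edgeR 4.0.16 and DESeq2 1.42.0 on recovered counts, median centring, no trend, a minimum mean of 1 CPM, the values without the added 1, a replicate block and each set 2 library left out. On simulated counts limma recovered 172 of 200 changed genes for D29 versus D21, with 0 false calls. For TNFα versus VC it recovered 197, with 14 false calls. The simulation gave every gene the same dispersion and each changed gene a 2- or 4-fold change. It held no library that stood apart and no difference between the times in the TNFα effect. These counts are therefore not error rates of the real comparisons.

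Cells with over 500 genes were clustered without the genes reported here (30 components, Harmony alignment written in numpy, 20 neighbours, Leiden resolution 0.25). A marker counted as raised at 20 CPM (UMIs per 1000000) or more and at least 2-fold above the other cells, with 10 added to both. A cluster took the name of the list with most raised markers, from 3 up, unless another list had more markers among its 10 leading genes. This rule was set after the clusters were seen. Doublets were kept, and Scrublet (scanpy 1.11.5) marked 1 cell per library. The 95% intervals of ratios are exact, conditional on the total of the compared counts. Intervals cover counting error only.

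All 7 genes were named in every comparison. Of the other lists, genes called on D29 versus D21 or under TNFα were named, at most 5 per direction and list, and for each of the 7 the 3 genes with the highest Pearson's r among those reaching 50 CPM in a sum of at least 100 cells. The single-cell classes of other genes were chosen after their values were seen. Some genes that this rule would name are not reported here. The genes and lists were chosen with earlier results of these data known.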

Additional observations from a re-analysis of the deposited data

Results flagged for a closer look

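Several results moved in opposite directions in groups under the same contrast. The times of the TNFα set, the days of set 1 and the single-cell conditions had 1 library each, so whether the groups differed in these contrasts was not tested. AGTR1, the type 1 angiotensin receptor, differed between TNFα and VC by -0.12 on the log2 scale at 24 h and by 0.39 at 48 h, on 44 to 87 reads per library. ACE differed between D29 and D21 by 0.17 in set 1 and by -0.46 in set 2, where the contrast itself did not pass the test (limma adjusted p = 0.0749).

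In single cells the ratio of TNFα to VC for ENPEP was 0.309 in the podocyte-like class, but 1.39 in proximal tubule-like cells and 1.71 in the stromal-like class. Without alignment of the libraries the last 2 were 0.638 and 0.545, so their direction was not kept. For DPP4 the ratio was 0.613 in proximal tubule-like cells, against 3.73 in the podocyte-like and 2.59 in the stromal-like class. Without alignment it was 0.713, 1.25 and 0.493, so the direction in the stromal-like class was not kept.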

How the results depend on the processing

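TNFα called 6 of the 7 genes lower in each of 6 alternatives; each group was 1 library, so no library was left out there. In set 1, 4 of 7 genes were lower on D29 than on D21 under both alternatives, with 1 library per day. The share of all genes that were lower there was not counted, so this count is no result about the 7 genes. In the VC single-cell library AGT, ACE, ANPEP and DPP4 were highest, among the named classes, in proximal tubule-like cells under all 4. With each library clustered alone no TNFα cluster took the proximal tubule name. TNFα to VC ratios in that class could therefore not be formed in that setting. In set 2 the genes called on D29 versus D21 were 3, and 2 to 4 in the other alternatives. On D25 versus D21 the count was 0, but 1 with edgeR, 2 with median centring and 2 with the replicate block, which also gave 4 on D29 versus D21. On D29 versus D25 it was 2, and 0 without the trend. With each library left out in turn the counts ranged from 1 to 3, from 0 to 2 and from 0 to 3.

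Among values under the alternatives, 312 kept direction and side of the threshold, 16 were weaker, 16 stronger, 21 moved and 14 reversed. AGTR1 on D29 versus D21 was -0.080 with median centring, and with a library left out it ranged from -0.060 (without D21 replicate 1) to 0.095. ANPEP ranged from -0.078 (without D21 replicate 2) to 0.31. On D25 versus D21 AGT ranged from -0.096 (without D21 replicate 2) to 0.33, and ENPEP was -0.062 with median centring and ranged from -0.030 (without D25 replicate 2; -0.024 without D21 replicate 2) to 0.055. MME on D29 versus D25 ranged from -0.43 (without D29 replicate 1; -0.019 without D25 replicate 1) to 0.48. The TNFα to VC ratio of ENPEP was 0.638 in proximal tubule-like, 0.545 in stromal-like and 0.821 in neuronal-like cells without alignment, and 0.547 in stromal-like cells with each library clustered alone. That of MME in neuronal-like cells was 0.768 without alignment. The cause was not tested.

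The count of all genes called on D29 versus D25 was 574, and 1336 with edgeR, 1278 with DESeq2, 1233 with median centring, 1124 with the filter, 1118 with the replicate block and 209 without the trend. Without either D25 library limma called 0, with 3383 and 3715 genes at an unadjusted p under 0.05. With a library left out the counts ranged up to 2014, and from 241 to 2231 on D25 versus D21 and from 2358 to 5417 on D29 versus D21. Median centring gave 2252 on D25 versus D21 against 1486, and DESeq2 2168 under TNFα against 4061. No source used here said that same-numbered libraries shared a culture, so the numbers were not taken as pairs. Deviations of same-numbered libraries correlated by 0.143, 0.0753 and 0.270, which does not decide whether they were pairs. The Scrublet alternative was not run, since its threshold marked 1 cell per library; leaving out the highest scores was added after the data were seen. Depth was lowest for AGTR1 of the 7 genes, with 10 to 26 reads per set 2 library and 71 and 37 UMIs.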
